A study of Rattus norvegicus with 12 samples.

Results

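The 9 genes described here encode AP-1 subunits and other immediate early transcription factors, namely Fos, Fosb, Fosl1, Fosl2, Jun, Junb, Jund, Atf3 and Egr1. They were taken by symbol from a deposited table of 22601 rat genes, in which each has 1 row, and all 9 passed the filter on low values used for testing. The table gives fragments scaled to transcript length and to library depth (FPKM). RNA came from the tissue in a drilled distal femur defect of Sprague Dawley rats, which were 8 weeks old at surgery, 2 weeks after the defect was made. There were 4 groups of 3 libraries. The control group received no scaffold, and the other groups received a 3D-printed scaffold of hydrogel, of polycaprolactone (PCL, a degradable polyester) or of β-tricalcium phosphate (β-TCP, a calcium phosphate ceramic). In the control group newly formed tissue was taken, whereas in the scaffold groups the scaffold was included with the tissue. The study's methods speak of independent samples in each group, but the labels do not say which libraries came from separate rats, and the spread behind each p-value is that between these libraries, which may be technical.

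AP-1 is a pair of leucine zipper proteins that binds DNA, usually a Fos family protein with a Jun family protein or a pair of Jun proteins. Many of these genes need no new protein to be switched on: growth factors, cytokines, stretch and injury act through MAP kinases on factors already bound at the promoters, and the transcripts are short-lived. In bone, Fos is required for osteoclasts to form from myeloid precursors, Fosl1 and Fosl2 act in osteoblasts and osteoclasts, and Junb is required for normal bone growth. Egr1 is a zinc finger factor induced by the same signals, and Atf3 is a stress-induced member of the ATF family that can pair with Jun proteins.

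Promoter sequence from RefSeq (GRCr8) was matched for 6 of the 9 genes. Those of Egr1, Junb and Fosl2, which were higher in β-TCP, are shown beside that of Jund, which did not pass the test in any comparison. Each line is the 250 bases before the annotated start, read 5′ to 3′ on the strand of the gene, with matches to searched motifs in capitals. The windows are chr18:26736828-26737077 on the plus strand for Egr1, chr19:40080876-40081125 on the plus strand for Junb, chr6:30039270-30039519 on the minus strand for Fosl2 and chr16:18769772-18770021 on the minus strand for Jund.
Egr1: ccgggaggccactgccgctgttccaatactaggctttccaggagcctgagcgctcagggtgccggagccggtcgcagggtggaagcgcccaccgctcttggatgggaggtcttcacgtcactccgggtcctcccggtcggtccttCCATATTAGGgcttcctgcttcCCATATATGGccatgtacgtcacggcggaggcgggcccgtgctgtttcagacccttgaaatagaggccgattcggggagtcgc
Junb: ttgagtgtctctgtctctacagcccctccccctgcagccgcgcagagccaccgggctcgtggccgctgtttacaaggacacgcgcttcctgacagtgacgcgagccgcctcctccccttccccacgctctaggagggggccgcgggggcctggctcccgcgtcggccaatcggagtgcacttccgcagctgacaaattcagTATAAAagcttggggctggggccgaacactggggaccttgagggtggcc
Fosl2: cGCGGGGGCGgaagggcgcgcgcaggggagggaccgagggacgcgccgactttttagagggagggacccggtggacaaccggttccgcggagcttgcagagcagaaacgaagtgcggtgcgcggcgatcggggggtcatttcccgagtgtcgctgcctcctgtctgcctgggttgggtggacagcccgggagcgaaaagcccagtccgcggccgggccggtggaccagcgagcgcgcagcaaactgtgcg
Jund: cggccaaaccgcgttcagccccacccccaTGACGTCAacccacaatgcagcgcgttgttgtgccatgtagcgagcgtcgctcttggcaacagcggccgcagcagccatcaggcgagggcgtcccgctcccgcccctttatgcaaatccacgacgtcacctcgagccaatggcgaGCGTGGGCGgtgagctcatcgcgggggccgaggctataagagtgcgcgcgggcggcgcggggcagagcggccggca

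Motifs were searched on both strands from 250 bases before to 50 bases after the start in 33469 promoters. The CArG box, the site read by serum response factor, matched in 1.64% of all promoters and in 1 of the 6, Egr1, which held a pair of boxes at positions -105 to -96 and -83 to -74. The cAMP response element TGACGTCA matched in 1.83% of promoters and in Jund alone of the 6, at -221 to -214. The Egr site, searched as GCGTGGGCG or GCGGGGGCG, matched in 3.20% of promoters and in 2 of the 6, Fosl2 at -249 to -241 and Jund at -76 to -68. The letters TATAAA matched in 14.2% of promoters and in Junb at -49 to -44, and also on the other strand in Fosb at -180 to -175. The AP-1 site itself, TGACTCA or TGAGTCA, matched in 4.63% of promoters and in 0 of the 6 windows. A match is a description of the letters, and binding was not measured.

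Libraries held 13751764 to 16002735 fragments recovered from the steps of the FPKM values, with 6 very abundant genes left out. Markers of osteoblasts and osteocytes, 14 of 14 of them tested, were present in every library, with a summed level of 6394 to 26402 FPKM. Cartilage markers summed to 2472 to 14580 FPKM in the control group, with the highest value in replicate 3, and to 223 to 1138 FPKM with a scaffold. Hemoglobin genes took 0.953% to 23.3% of the total FPKM of a library. β-TCP replicates 2 and 3 were far closer to each other than any other pair of replicates, with a mean chi-square per gene of 2.13 against 34.6 to 327. They differed by somewhat more than sampling noise and were kept as 2 libraries, so each SD given for β-TCP counts the pair as 2 values. Results that rest on β-TCP are also given with the pair averaged as 1 library. Because the RNA is from bulk tissue, fewer cells of a type and less RNA per cell cannot be told apart.

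The genes lay at very different levels. Jund, a broadly expressed Jun protein, had the highest mean over the 12 libraries at 61.7 FPKM and the smallest ratio between its highest and lowest library, 1.48 (48.5 to 72.1 FPKM). Junb followed at 48.8, Fosl2 at 34.9, Egr1 at 26.9, Fos at 22.6, Jun at 19.6 and Atf3 at 10.96 FPKM. Fosb and Fosl1 were near the limit of testing, at 1.05 and 0.851 FPKM, and rested on only 12 to 199 and 5 to 64 fragments per library. Atf3 had the widest range, 1.71 to 29.5 FPKM, a ratio of 17.3 between the highest and the lowest library.

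Fos, Fosl2, Junb and Egr1 differed among the 4 groups in limma's moderated F test, and in each of them every β-TCP library lay above every other library. The share of all genes with that separation was not counted, and the β-TCP libraries include a close pair. The adjusted p was 0.0142 for Egr1, 0.0325 for Junb, 0.0383 for Fos and 0.0398 for Fosl2. Of all 12633 genes tested, 2.98% passed, against 4 of these 9 genes. The other 5 genes had an adjusted p of 0.0577 for Atf3, 0.215 for Jun, 0.277 for Fosl1, 0.426 for Jund and 0.845 for Fosb. With the close pair of β-TCP libraries averaged, 0 of the 9 genes passed the F test, and only 6 of all 12633 genes did.

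**Figure D1:**
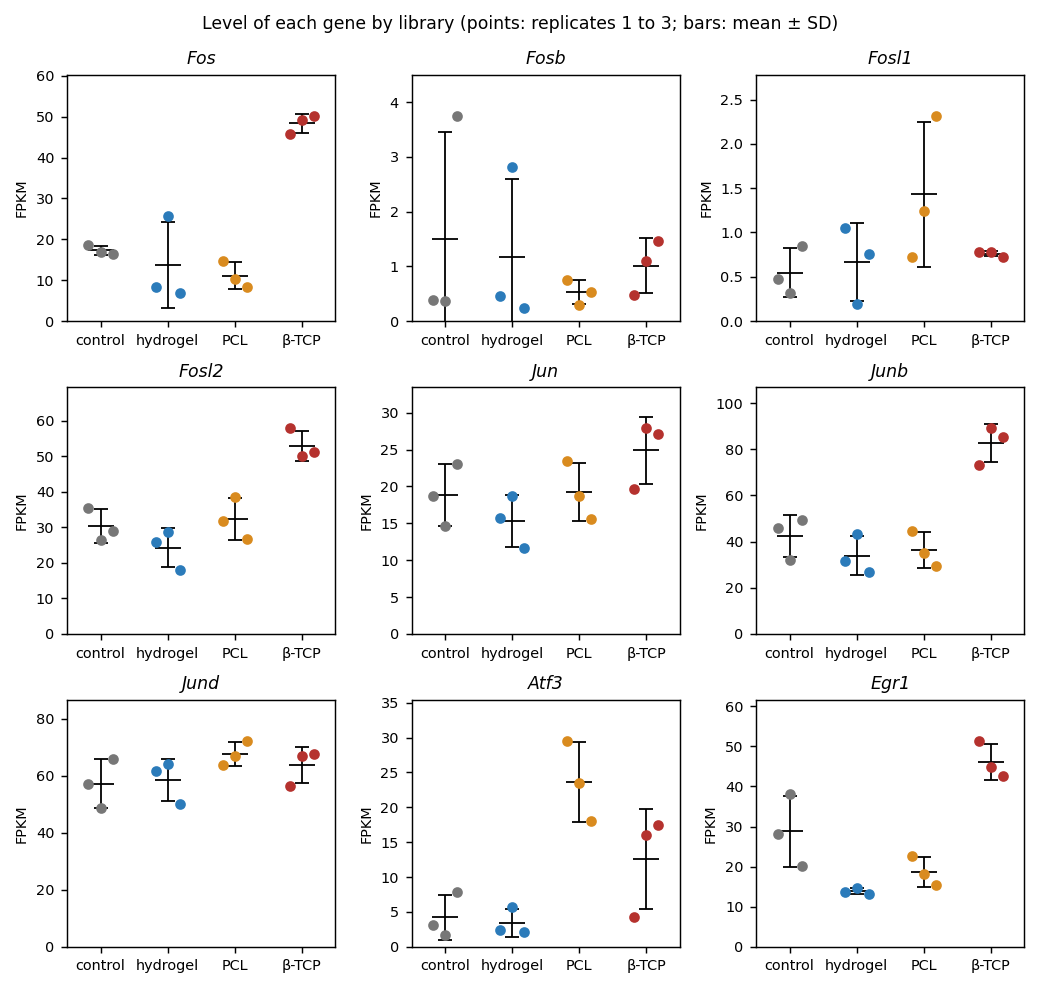
FPKM of each gene (vertical axis, linear, from 0) in the 4 groups (horizontal axis), with 1 point a library in the order of replicates 1 to 3 and the mean ± SD as black bars. Fos, Fosl2, Junb and Egr1 were higher in all 3 β-TCP libraries than in any other library, Atf3 was highest in the 3 PCL libraries, and the lower SD bars of Fosb in control and hydrogel run below 0 and are cut there.

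Fos encodes the founding AP-1 subunit, an unstable protein that binds DNA as a partner of a Jun protein. Its level was 18.6, 16.9 and 16.5 FPKM in the control libraries and 45.7, 49.2 and 50.3 FPKM in the β-TCP libraries. It was 8.30, 25.8 and 6.86 FPKM with hydrogel and 14.7, 10.2 and 8.34 FPKM with PCL. The control and β-TCP values were apart and each lay close together, though β-TCP includes the close pair of replicates 2 and 3. Hydrogel replicate 2 stood above its own group and above all control and PCL libraries. In β-TCP, Fos was 4.37 times the mean of PCL (log2 fold change 2.06 ± 0.38 SE, limma adjusted p = 0.0476) and 3.55 times that of hydrogel (1.98 ± 0.38, adjusted p = 0.0191). Against control it was 2.79 times as high (1.43 ± 0.38), which missed the adjusted threshold at adjusted p = 0.0583. Control exceeded all 3 PCL libraries, but the difference of PCL from control, -0.63 with a 95% interval of -1.47 to 0.20, did not pass.

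Fosl2 encodes Fra-2, a Fos relative that lacks the strong activation domain of Fos. Its level was 35.5, 26.3 and 29.0 FPKM in control, 26.0, 28.6 and 18.1 FPKM with hydrogel and 31.7, 38.5 and 26.6 FPKM with PCL. The β-TCP libraries had 57.8, 49.996 and 51.1 FPKM. Control, hydrogel and PCL overlapped one another and β-TCP was above all of them. It rose 2.19-fold in β-TCP over hydrogel (log2 fold change 1.12 ± 0.19 SE, limma adjusted p = 0.0131) and 1.75-fold over control (0.79 ± 0.19, adjusted p = 0.0414). The excess over PCL, 0.71 ± 0.19, did not pass (adjusted p = 0.108).

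The remaining Fos genes were sparse. Fosb, an inducible Fos relative with a splice form that accumulates under repeated stimulation, was at 0.383, 0.365 and 3.75 FPKM in control and 0.463, 2.81 and 0.245 FPKM with hydrogel. With PCL it was at 0.755, 0.301 and 0.537 FPKM and with β-TCP at 0.471, 1.10 and 1.47 FPKM. Control replicate 3 and hydrogel replicate 2, with 199 and 144 fragments, stood above every other library. All groups overlapped, and no difference passed the test at this depth. Fosl1, which encodes Fra-1, was at 0.473, 0.317 and 0.848 FPKM in control and at 1.05, 0.191 and 0.760 FPKM with hydrogel. It was at 0.720, 1.25 and 2.32 FPKM with PCL and at 0.779, 0.778 and 0.727 FPKM with β-TCP. Its largest difference, PCL over control at 0.61 ± 0.26 on the log2 scale, did not pass (limma adjusted p = 0.253), and the interval of 0.04 to 1.18 is wide.

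Junb encodes a Jun protein that can also restrain Jun. It had 45.7, 32.1 and 49.5 FPKM in control and 31.5, 43.2 and 26.9 FPKM with hydrogel. With PCL it had 44.7, 34.9 and 29.5 FPKM and with β-TCP 73.3, 89.0 and 85.4 FPKM. As for Fosl2, the first 3 groups overlapped and β-TCP stood above them. Junb rose in β-TCP against each of the other groups, 2.44-fold over hydrogel (log2 fold change 1.28 ± 0.22 SE, limma adjusted p = 0.0131), 2.27-fold over PCL (1.18 ± 0.22, adjusted p = 0.0476) and 1.95-fold over control (0.96 ± 0.22, adjusted p = 0.0358).

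Jun and Jund, the other Jun proteins, showed no such step. Jun was at 18.7, 14.7 and 23.1 FPKM in control, 15.7, 18.7 and 11.7 FPKM with hydrogel, 23.4, 18.7 and 15.6 FPKM with PCL and 19.6, 27.9 and 27.2 FPKM with β-TCP. Its β-TCP libraries were above all hydrogel libraries, by 0.67 ± 0.22 on the log2 scale, without passing the adjusted threshold (limma adjusted p = 0.0819), and they overlapped control and PCL. Jund ran from 48.5 to 65.9 FPKM in control, 49.9 to 64.0 with hydrogel, 63.6 to 72.1 with PCL and 56.4 to 67.6 with β-TCP. For Jund in β-TCP against control the 95% interval was -0.15 to 0.47 on the log2 scale, which leaves out a change as large as that of Junb.

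Egr1, the zinc finger factor, was the gene with the smallest p among the 9. Its level was 28.2, 38.05 and 20.2 FPKM in control, 13.8, 14.8 and 13.2 FPKM with hydrogel, 22.6, 18.1 and 15.3 FPKM with PCL and 51.3, 44.7 and 42.7 FPKM with β-TCP. Hydrogel was the lowest group and did not overlap any other, and β-TCP was the highest and did not overlap any other. It rose 3.33-fold in β-TCP over hydrogel (log2 fold change 1.66 ± 0.21 SE, limma adjusted p = 0.00709) and 2.48-fold over PCL (1.28 ± 0.21, adjusted p = 0.0346). Against control the ratio was 1.61 (0.71 ± 0.21, adjusted p = 0.0817). In hydrogel it stood at 0.483 of the control mean, a difference of -0.96 ± 0.21 that did not pass (adjusted p = 0.287) in a comparison where the median gene moved by 0.14. That difference was -1.09 with median-of-ratios scaling (adjusted p = 0.0635) and -1.18 without control replicate 3 (adjusted p = 0.0942).

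Atf3, the stress-induced factor, followed another order. It was at 3.05, 1.71 and 7.91 FPKM in control, 2.42, 5.64 and 2.15 FPKM with hydrogel, 29.5, 23.5 and 18.003 FPKM with PCL and 4.33, 16.0 and 17.4 FPKM with β-TCP. All 3 PCL libraries were above all others, while β-TCP was divided, with replicate 1 at the level of control and hydrogel and the close pair of replicates 2 and 3 near PCL. In PCL it was 5.597 times the control mean (log2 fold change 2.39 ± 0.54 SE, limma adjusted p = 0.0956) and 6.95 times the hydrogel mean (2.54 ± 0.54, adjusted p = 0.188). Both passed the unadjusted threshold of the study's methods, which asks for p under 0.05 before adjustment and a change of more than 2-fold, and neither passed with adjustment. The fold change was taken here on log2(FPKM + 1) values. β-TCP also passed that threshold over control (1.36 ± 0.54, adjusted p = 0.202) and over hydrogel (1.51 ± 0.54, adjusted p = 0.0916), and both calls ended with replicates 2 and 3 averaged, at 1.08 and 1.23, or without either of those replicates. The first also ended without control replicate 1 or 2 and the second without hydrogel replicate 1 or 3. The summed level of macrophage markers split the β-TCP libraries in the same way, at 4464 FPKM in replicate 1 and 9672 and 9720 FPKM in replicates 2 and 3, and it was 4909 to 5406 with PCL, 2090 to 4223 in control and 3742 to 5624 with hydrogel. Its part in the Atf3 values was not tested.

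**Figure D2:**
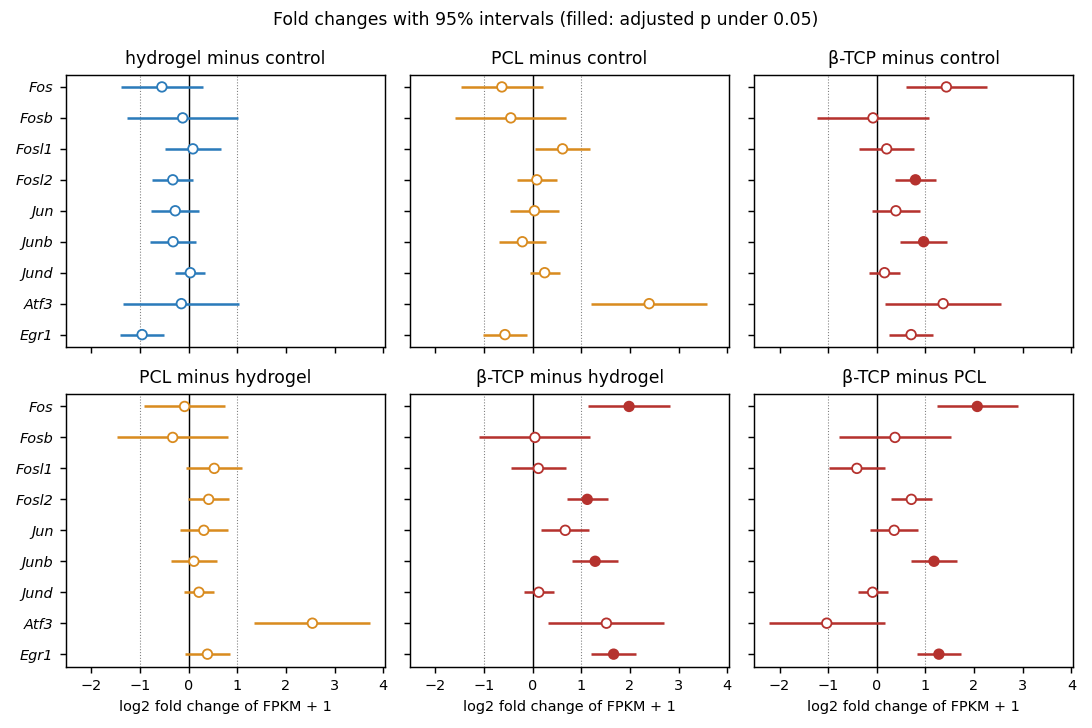
Log2 fold change of FPKM + 1 (horizontal axis) of each gene (vertical axis) in the 6 comparisons of 2 groups, with 95% intervals from limma as lines. Filled points passed adjusted p under 0.05, and dotted lines mark 2-fold changes. The filled points are all in the β-TCP comparisons and all to the right of 0, and Atf3 in PCL is the gene with the largest estimate.

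Counted by comparison, β-TCP against hydrogel held the most calls. There, 4 of the 9 genes passed adjusted p (Egr1, Fos, Fosl2 and Junb), where 6.13% of all genes did, and 5 passed the unadjusted threshold with Atf3 added, where 8.38% of all genes did. The median of the 9 estimates was 1.12, while that over all genes was -0.06. All 9 were above 0, but that of Fosb was only 0.04, with a β-TCP mean of 0.863 of the hydrogel mean, and it turned negative in 5 alternatives, the averaged pair among them, as that of Fosl1 (0.12) did in 1. Against PCL, β-TCP had 3 genes higher at adjusted p (Egr1, Fos and Junb), against 0.657% of all genes, and the same 3 past the unadjusted threshold, against 4.48%. Against control, Fosl2 and Junb passed adjusted p, against 4.78% of all genes, and Fos and Atf3 passed the unadjusted threshold, against 3.51%. The median of the 9 was 0.71 against 0.03 for all genes. The 3 β-TCP comparisons share the same β-TCP libraries and are not independent of each other.

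Outside β-TCP few calls were made. In PCL against control, 0 genes passed adjusted p (0.277% of all genes did) and 1, Atf3, passed the unadjusted threshold (3.64% of all genes did). In PCL against hydrogel the counts were again 0 (0.103% of all genes) and 1, Atf3 (0.768%). In hydrogel against control, 0 of the 9 passed either rule in limma, where 0.00792% of all genes passed adjusted p and 2.29% the unadjusted threshold. The fold change of that threshold was taken on log2(FPKM + 1). By the ratio of mean FPKM, Egr1 in hydrogel against control was past 2-fold, at 0.483 (limma unadjusted p = 0.000815). So was Fosl1 in PCL against control, at 2.62 (limma unadjusted p = 0.0378). Before adjustment, p was under 0.05 for 1 of the 9 in hydrogel against control (Egr1), for 3 in PCL against control and for 1 in PCL against hydrogel. Of all 12633 genes, 1894, 2327 and 1040 had p under 0.05 in these comparisons. Limma-voom on recovered fragments gave 0 adjusted calls in each of the 3, and weights per library gave 4, 6 and 3. With those weights 4174, 7296 and 2476 of all 12633 genes were called.

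These calls depended on the close pair of β-TCP libraries more than the estimates did. With replicates 2 and 3 averaged, Egr1 against hydrogel was the 1 call left at adjusted p (log2 fold change 1.70, limma adjusted p = 0.0492). Of all 12633 genes, 11 passed over control, 16 over hydrogel and 2 over PCL. Fos was then at 1.96 over hydrogel (adjusted p = 0.0871), Fosl2 at 1.15 (adjusted p = 0.0633) and Junb at 1.24 (adjusted p = 0.0728). Without β-TCP replicate 2, or without replicate 3, 0 of the 9 genes passed adjusted p in any β-TCP comparison, and over control only 8 genes of the whole table did without replicate 2, in place of 604. Without that replicate only 3 genes of the whole table passed over hydrogel, in place of 775, and 1 over PCL, in place of 83. Over hydrogel, the call of Fos was also lost without hydrogel replicate 1 or 3 and that of Junb without hydrogel replicate 3. The unadjusted threshold was less affected: with the pair averaged it was still passed over hydrogel by Egr1, Fos, Fosl2 and Junb, over PCL by Egr1, Fos and Junb, and over control by Fos. Of all 12633 genes, 713, 319 and 375 passed it in these comparisons.

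Within the families the balance of subunits also differed. The summed level of the 4 Fos genes was 101 to 105 FPKM in β-TCP, 43.9 to 55.0 in control, 25.9 to 57.3 with hydrogel and 37.8 to 50.3 with PCL. Fos made up 47.0% ± 2.8 of that sum in β-TCP (SD, n = 3), 35.1% ± 3.0 in control, 31.5% ± 11.7 with hydrogel and 24.4% ± 5.6 with PCL. Hydrogel replicate 2, at 44.95%, reached the β-TCP range of 43.7% to 48.7%, so those groups overlapped. The 3 Jun genes summed to 149 to 184 FPKM in β-TCP and 88.5 to 138 FPKM elsewhere. Junb took 47.4% to 49.1% of the Jun sum in β-TCP and 25.2% to 37.6% in the other libraries, and Jund took 36.5% to 37.7% and 47.0% to 61.5%, with no overlap for either. The share of Jun itself stayed between 13.1% and 17.8% in all 12 libraries. These shares compare transcript levels per length and do not measure protein.

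**Figure D3:**
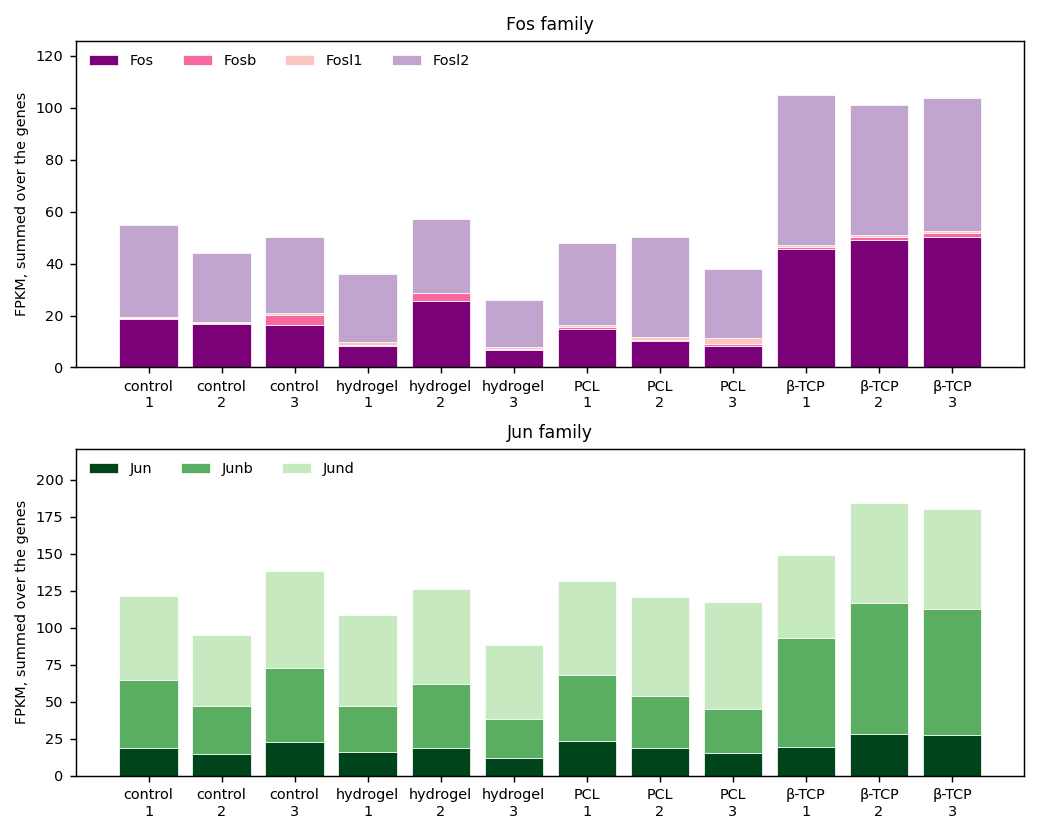
Summed FPKM (vertical axis, from 0) of the Fos genes (upper panel) and the Jun genes (lower panel) in each of the 12 libraries (horizontal axis), with 1 colour a gene. The β-TCP bars are the tallest in both panels, at 101 to 105 FPKM for Fos genes and 149 to 184 FPKM for Jun genes, and the added height is mainly Fos, Fosl2 and Junb.

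The 9 genes did not vary as 1 block. Since every β-TCP value of Fos, Fosl2, Junb and Egr1 lay apart from the rest, 12-library correlations among them mainly compare β-TCP with the other groups, and the 6 pairs among these 4 genes were all among the 10 of 36 pairs at adjusted p under 0.05 (permutation test). Over the 9 libraries outside β-TCP, 1 of 36 pairs passed for Pearson's r, Jun with Junb (r = 0.90, exact permutation p = 0.00092, adjusted p = 0.0331). Its Spearman's rho was 0.82 (exact permutation p = 0.0108, adjusted p = 0.173), and r was 0.85 without the 2 libraries farthest from the median of Jun. The r of values centred on group means was 0.94 for that pair over 12 libraries. Fos with Junb (r = 0.79) and Jund with Atf3 (r = 0.77) came next outside β-TCP, each with an exact permutation test at adjusted p = 0.170. Egr1 and Junb, which both rose in β-TCP, had an r of -0.15 on values centred on group means.

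**Figure D4:**
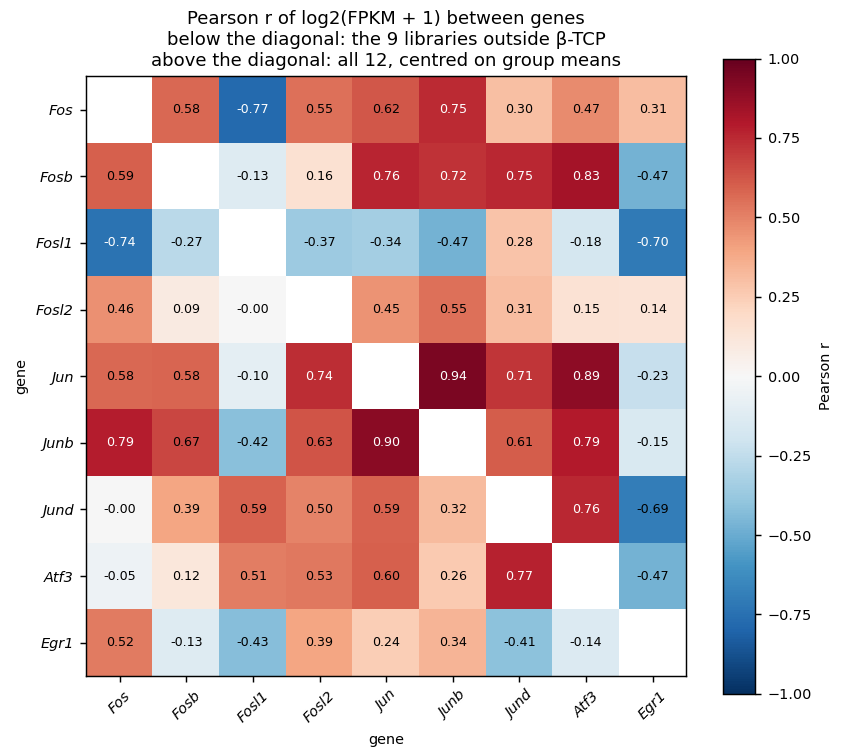
Pearson's r of log2(FPKM + 1) between the 9 genes, written in each cell and coloured from blue (-1) to red (1). Cells below the diagonal use the 9 libraries outside β-TCP and cells above it use all 12 libraries after centring each group on its mean. Jun with Junb is high on both sides of the diagonal, at 0.90 and 0.94, while the cells of Fosl1 are mostly below 0.

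Other genes followed some of the 9 closely over the 12 libraries, as a description without a test. The 12 libraries include β-TCP, which lies apart for Fos, Fosl2, Junb and Egr1, and many genes were about as close: r was over 0.9 for 316 genes with Junb, 293 with Fosl2, 227 with Jun, 98 with Fos, 18 with Atf3, 6 with Egr1, 2 with Fosl1, 1 with Jund and 0 with Fosb. Nearest to Fosl2 were Fhl3 (r = 0.99), Siglec15, a receptor of osteoclasts (r = 0.99), and Atp6v1a, a subunit of the vacuolar proton pump (r = 0.98). Nearest to Junb were Snx18 (r = 0.99), Ctbs and Homer3 (both 0.98), and nearest to Jun were Mmp19, A3galt2 and Scpep1 (each 0.99). For Fos these were Qsox2 (0.96), Mfap3l (0.95) and Errfi1 (0.94), the last a feedback inhibitor of the EGF receptor. For Atf3 they were Lgals3, which encodes galectin-3 of macrophages (0.96), Slc8a1 (0.95) and Mmp12, macrophage elastase (0.95). Egr1 was nearest to Il6 (0.93), itself only at 0.511 FPKM, Rabep1 (0.92) and Pragmin (0.91). Jund was nearest to Zfp691 (0.94), Pcyt1a (0.86) and Hras (0.85), Fosl1 to Mical2 (0.95), Fntb (0.91) and F2rl1 (0.85), and Fosb to LOC290595, Epb41l1 (both 0.89) and Hoxd8 (0.88).

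Other leucine zipper proteins that pair with AP-1 subunits gave a few calls in β-TCP. The shares of all genes that passed adjusted p, against which this and the next lists are read, were 6.13% over hydrogel, 4.78% over control and 0.657% over PCL. These lists too were chosen with earlier results of these data known. Of 17 zipper proteins tested, 3 were higher in β-TCP than in hydrogel at adjusted p and 0 lower, with a median log2 fold change of 0.12, and 2 were higher than in control. Maff, a small Maf protein without an activation domain, rose from 3.76 ± 0.46 FPKM in control, 2.97 ± 1.16 with hydrogel and 4.24 ± 0.68 with PCL to 14.1 ± 0.43 FPKM in β-TCP (SD, n = 3), at limma adjusted p = 0.00458, 0.00293 and 0.0120. Cebpb, a C/EBP factor of inflammation, rose over control (22.8 to 70.5 FPKM, adjusted p = 0.0265). Jdp2, a repressor that pairs with Jun and takes part in osteoclast formation, rose over hydrogel (31.6 to 83.8 FPKM, adjusted p = 0.0197), as did Cebpd (20.8 to 34.8 FPKM, adjusted p = 0.0493).

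Other immediate early transcription factors went both ways. Of 16 tested, 4 were higher and 1 lower in β-TCP than in hydrogel at adjusted p, and 1 higher and 1 lower than in control. With shares of 6.13% and 4.78% over all genes, the count against control is near the background. Egr2, a close relative of Egr1, rose to 2.72 ± 0.69 FPKM in β-TCP from 0.992 ± 0.24 in control and 0.623 ± 0.24 with hydrogel (SD, n = 3, limma adjusted p = 0.0434 and 0.0161). It was as high with PCL, at 3.01 ± 0.99 FPKM, without passing over control or hydrogel (limma adjusted p = 0.0912 and 0.0715). Bhlhe40 and Nfkbiz rose over hydrogel, to 54.1 from 18.5 FPKM and to 14.6 from 7.68 FPKM (adjusted p = 0.0187 and 0.0359). Klf2, which is induced by shear flow in endothelium, fell by 0.88 on the log2 scale against control and by 1.18 against hydrogel (adjusted p = 0.0319 and 0.0120).

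Genes induced together with AP-1 that feed back on the same signals were higher in part. Of 32 tested, 10 were higher than in hydrogel (6.13% of all genes were called), 5 higher than in control (4.78%) and 4 higher than in PCL (0.657%) at adjusted p, and 0 were lower in any of the 3. Nfkbia, the inhibitor of NF-κB, rose to 142 ± 6.0 FPKM from 61.1 ± 12.4 in control, 70.2 ± 12.3 with hydrogel and 56.2 ± 9.9 with PCL (SD, n = 3, limma adjusted p = 0.0125, 0.0150 and 0.0197). Socs3, which blocks cytokine receptors, rose over control and hydrogel (15.9 and 14.3 to 39.8 FPKM, adjusted p = 0.0384 and 0.0216). Cyr61, a secreted matrix protein, rose over hydrogel and PCL (14.2 and 20.9 to 66.8 FPKM, adjusted p = 0.0088 and 0.0476), and the MAP kinase phosphatase Dusp4 rose over hydrogel (10.6 to 24.6 FPKM, adjusted p = 0.0385).

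The kinases and serum response factors above AP-1 were tested at the transcript level. Of 28 genes, 0 passed either rule in limma or in limma-voom in any of the 6 comparisons, and their median was -0.16 for β-TCP against hydrogel and -0.04 against control. Before adjustment in limma, p was under 0.05 for 1 in PCL against hydrogel and up to 4 in β-TCP against hydrogel. In those comparisons 1040 and 4340 of all 12633 genes had p under 0.05. With 0.00792% to 6.13% of all genes past adjusted p in the 6 comparisons, few or no adjusted calls are also what the background gives for a list of this size. Those with the highest levels, the kinases Mapkapk2 and Map2k2, were at 58.6 ± 3.3 and 49.5 ± 1.6 FPKM in β-TCP and at 75.4 ± 14.9 and 55.2 ± 2.5 FPKM with hydrogel (SD, n = 3). Activity of these kinases was not measured.

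Of 22 known AP-1 target genes, 9 were higher in β-TCP than in hydrogel at adjusted p (6.13% of all genes were called), 3 than in control (4.78%) and 1 than in PCL (0.657%), with 0 lower, and the others did not pass. Plau, the urokinase plasminogen activator, was at 89.7 ± 12.4 FPKM in β-TCP, 20.7 ± 3.5 in control and 16.8 ± 7.2 with hydrogel (SD, n = 3, limma adjusted p = 0.0112 and 0.00681). With PCL it lay between, at 53.5 ± 11.2 FPKM. PCL did not pass against β-TCP, control or hydrogel (limma adjusted p = 0.173, 0.0912 and 0.0715). The chemokine Ccl2 was at 52.2 ± 20.4 FPKM in β-TCP, 10.7 ± 2.1 in control and 9.54 ± 3.7 with hydrogel (adjusted p = 0.0160 and 0.0113). Cxcl1, a neutrophil chemokine, rose over hydrogel and PCL (1.21 and 1.06 to 10.2 FPKM, adjusted p = 0.0131 and 0.0362). Spp1, which encodes osteopontin, rose over hydrogel from 3116 to 8056 FPKM (adjusted p = 0.0451).

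Osteoclast genes that act downstream of Fos had 9 of 11 members higher in β-TCP than in hydrogel at adjusted p (6.13% of all genes were called), 4 higher than in control (4.78%) and 1 higher than in PCL (0.657%), with medians of 1.29, 0.83 and 0.997 on the log2 scale. Calcr, the calcitonin receptor, was at 28.9 ± 4.3 FPKM in β-TCP, 7.25 ± 1.3 in control, 9.10 ± 3.1 with hydrogel and 11.2 ± 3.3 with PCL (SD, n = 3, limma adjusted p = 0.00895, 0.0103 and 0.0476). Atp6v0d2, needed for osteoclast fusion, rose to 228 ± 9.8 FPKM from 93.4 ± 7.2 in control and 76.5 ± 29.2 with hydrogel (adjusted p = 0.0269 and 0.0113). Prdm1, a repressor in that pathway, rose from 6.81 and 5.53 to 16.6 FPKM (adjusted p = 0.0309 and 0.0150), and the collagen-degrading protease Ctsk rose from 2952 and 2671 to 6890 FPKM (adjusted p = 0.0376 and 0.0207) over control and hydrogel.

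The adjusted calls in these lists, like those of the 9 genes, rested on the close pair of β-TCP libraries. With the pair averaged, 1 of 22 AP-1 targets, 1 of 17 zipper proteins and 0 of the other factors, feedback and osteoclast genes passed adjusted p over hydrogel in limma. Of all 12633 genes, 16 did. Over control 1 zipper protein and 0 genes of the other lists passed, where 11 of all 12633 genes did. Over PCL 0 genes of these lists passed, where 2 of all 12633 genes did. The medians over hydrogel were then 1.03 for AP-1 targets, 1.31 for osteoclast genes and 0.53 for feedback genes. At the unadjusted threshold 9, 10 and 7 genes of these 3 lists were higher, against 10, 9 and 7 with the pair kept apart. In either direction, that threshold called 713 of all 12633 genes with the pair averaged and 1059 with it kept apart.

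**Figure D5:**
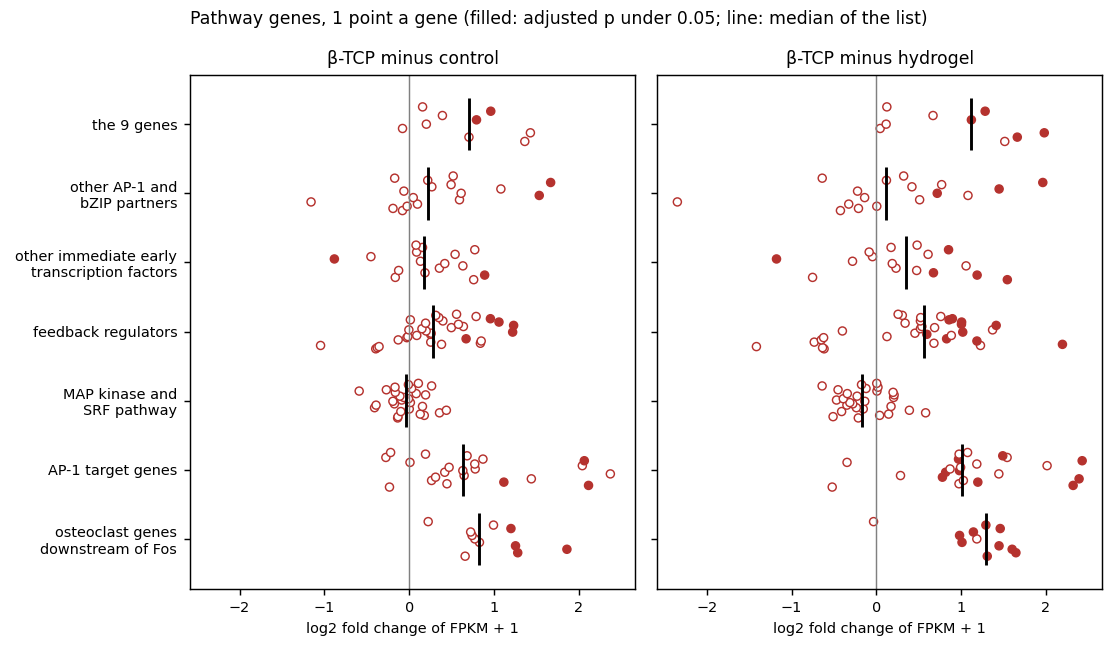
Log2 fold change of FPKM + 1 (horizontal axis) of each tested gene in 7 lists (vertical axis) for β-TCP against control (left) and against hydrogel (right), with 1 point a gene, filled at adjusted p under 0.05, and the median of each list as a black line. The medians of the 9 genes, the AP-1 targets and the osteoclast genes lie to the right of 0, at 1.12, 1.01 and 1.29 against hydrogel, while that of the MAP kinase and SRF pathway is at -0.16.

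Cell type markers differed in both directions in β-TCP against hydrogel, with a median log2 fold change of 1.24 for osteoclast, 0.85 for macrophage, -2.87 for neutrophil, -1.88 for erythroid and -2.65 for B cell markers. Osteoclast markers, 8 of 10 of them higher in β-TCP than in hydrogel at adjusted p (6.13% of all genes) and Acp5 and Calcr among them, summed to 10008 to 10530 FPKM in β-TCP, 4323 to 5794 in control, 3274 to 5864 with hydrogel and 5261 to 6124 with PCL. Unlike that of the macrophage markers, of which 10 of 15 were higher than in control at adjusted p (4.78% of all genes), this sum was high in all 3 β-TCP libraries, like Fos, Fosl2, Junb and Egr1. The osteoclast marker list shares genes with the list downstream of Fos, Calcr, Atp6v0d2 and Ctsk among them. Those lists are therefore not separate results. With the close β-TCP pair averaged, 0 of the osteoclast and 0 of the macrophage markers passed adjusted p in these comparisons in limma, where 9 of 10 and 13 of 15 had p under 0.05 before adjustment. Of all 12633 genes, 2529 over hydrogel and 1544 over control then had p under 0.05, and 16 and 11 passed adjusted p. Neutrophil markers summed to 876 to 1249 FPKM in β-TCP and erythroid markers to 14387 to 31875 FPKM, with 0 of 11 and 0 of 16 past adjusted p against hydrogel in limma and in limma-voom (6 and 1 lower at the unadjusted threshold in limma, and 3 and 0 with the pair averaged). B cell markers summed to 67.0 to 178 FPKM in β-TCP and 501 to 961 with hydrogel, with 11 of 12 lower at the unadjusted threshold (8.38% of all genes were called) and 0 at adjusted p. That count of 11 was 4 with the pair averaged (713 of all 12633 genes) and 8 in limma-voom (1356 of 12627), again with 0 at adjusted p. The part of osteoclast, macrophage or other cell content in the 9 genes was not tested.

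Signs of handling were read from heat shock genes, which respond to stress during dissection as several of the 9 do. Their sum was 1237 to 1250 FPKM in β-TCP, within the range of control (1153 to 1484) and below that of hydrogel (1368 to 1691) and PCL (1353 to 1446). Much of that sum was Hsp90ab1 and Hspa8, with means of 485 and 371 FPKM in β-TCP. It can therefore hide changes of less abundant heat shock genes, and Hspa1b was not among the genes measured. Of 11 tested, 1 differed at adjusted p in any comparison, Dnajb1, which fell by 0.45 on the log2 scale in β-TCP against hydrogel (limma adjusted p = 0.0451), where 6.13% of all genes were called, and that call was lost with the close pair averaged. At the unadjusted threshold Hsp90aa1 was higher in β-TCP than in control by 1.13 and Hspb1 was at -1.26 in hydrogel against control, both chosen here after their values were seen. Time between death and freezing is not given in the sources used here.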

How the data were processed

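Libraries were grouped by their sample titles into 4 groups of 3. The deposited FPKM values were computed by the authors, and the submitters' processing notes name Trimmomatic, HISAT2, Cufflinks, HTSeq, Bowtie, StringTie and the build Rnor_6.0. For extraction and library preparation the labels name mirVana and TruSeq Stranded kits and the study's methods Trizol and VAHTS, which was not settled. A further 3 value columns matched no sample and were not used. FPKM is relative to the library total, so abundant hemoglobin lowers other genes.

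The 9 genes and all gene lists were chosen with earlier results of these data known. The 12633 genes that reached an FPKM of 1 in 3 or more libraries entered limma 3.58.1 (R 4.3.3) as log2(FPKM + 1), in 1 fit of 12 libraries with a trend, two-sided, and p-values were adjusted by Benjamini-Hochberg over these genes. The pseudocount of 1 understates changes of low genes, and ratios of means are given beside it. Calls were made at adjusted p under 0.05, or at the threshold of the study's methods (unadjusted p under 0.05 and more than a doubling or halving). The doubling or halving was read from the fitted change in log2(FPKM + 1), not from the ratio of mean FPKM. Whole fragments, recovered from FPKM steps for 18678 of 18684 genes (99.97%, within 0.01 of a whole number), entered limma-voom as an alternative. Pseudocounts, filters, scalings, weights, a replicate block and left-out libraries were the others. Correlations used 100000 permutations over 12 libraries and exact permutations over 9. Named genes were the 9, up to 4 per list with the largest change at adjusted p (or the 2 most abundant where fewer than 2 passed), and the 3 genes nearest to each of the 9. The fit was tested on simulated data.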

Additional observations from a re-analysis of the deposited data

How the results depend on the processing

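Of 54 comparisons of a gene between 2 groups, 14 were called, and 0 of these changed direction in any alternative. Among the 40 others, 13 changed sign in at least 1 of their fits. At the unadjusted threshold, Fos in β-TCP against control and Atf3 in PCL against control and hydrogel were called under every alternative run. Calls at adjusted p were less stable, with 4 in the F test, 2, 4 and 3 for β-TCP against control, hydrogel and PCL, and 0 in the other comparisons in the fit reported above.

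Weights per library, which gave one control library a weight of 40.6 and another 0.0439, called 9 genes in the F test, 8 for β-TCP against control, 6 for β-TCP against PCL, 6 for PCL against control, 4 for hydrogel against control and 3 for PCL against hydrogel. In the same order, that setting called 10914, 8546, 6859, 7296, 4174 and 2476 of all 12633 genes. For β-TCP against control the adjusted count was 1 without a filter, with median-of-ratios scaling and with only the 2 groups in the fit, and 0 with quantile normalization. Over all genes these settings called 535 of 18684, and 479, 124 and 392 of 12633. For β-TCP against PCL the adjusted count was 1 with pseudocounts of 0.1 and 0.5, without a filter, with an FPKM minimum of 5 and with median-of-ratios scaling. Over all genes these settings called 38 and 53 of 12633, 94 of 18684, 42 of 9548 and 50 of 12633. The F test gave 2 without a filter, where 345 of 18684 genes passed. With β-TCP replicates 2 and 3 averaged, the adjusted counts were 0 in the F test, 0 against control, 1 against hydrogel and 0 against PCL, and the unadjusted count against control was 1, as it was with only the 2 groups in the fit. Over all 12633 genes the adjusted counts with the pair averaged were 6, 11, 16 and 2. The unadjusted count over all genes against control was 375, and 409 with only the 2 groups in the fit. Egr1 passed the unadjusted threshold in hydrogel against control (a count of 1) with median-of-ratios scaling, quantile normalization and limma-voom. Over all genes these called 314 and 303 of 12633 and 513 of 12627.

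The replicate numbers did not pair the libraries, since deviations of same-numbered libraries correlated at -0.61 to 0.47 and at over 0.1 in only 4 of 18 pairs. A replicate block gave adjusted counts of 1 in the F test, 0 for β-TCP against control and 1 for β-TCP against PCL, where 149, 322 and 45 of all 12633 genes passed. Leaving out 1 library at a time, the adjusted counts ranged from 0 to 5 in the F test and from 0 to 3, 0 to 6 and 0 to 4 for β-TCP against control, hydrogel and PCL. Over all genes tested they ranged from 5 to 2928 in the F test and from 8 to 1324, 2 to 4728 and 1 to 1905 in these comparisons. The unadjusted counts ranged from 1 to 3 and 3 to 5 for β-TCP against control and hydrogel, and from 0 to 1 for hydrogel against control. Over all genes tested they ranged from 370 to 799, 469 to 1395 and 88 to 1181. Adjusted calls against hydrogel were all lost without β-TCP replicate 2 or 3, where 3 and 2 genes of the whole table passed in place of 775. Those against control were all lost without control replicate 2, hydrogel replicate 1, PCL replicate 2 or any β-TCP library, and those against PCL without control replicate 1, hydrogel replicate 1 or any PCL or β-TCP library. A lone left-out library also lowers the degrees of freedom, and the cause of the other changes was not tested.

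Restricting the correlations to the 9 libraries outside β-TCP left 1 pair in place of 10. That restriction, and the list counts under averaging and limma-voom, were chosen after seeing the data. Fosb and Fosl1, with 5 to 199 fragments per library, are limited by depth.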
